A study of Caenorhabditis elegans with 2 samples.

Results

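The genes described here are 10 genes of Caenorhabditis elegans that make and use S-adenosylmethionine (SAM), the methyl donor of the cell, and that turn phosphoethanolamine into the head group of phosphatidylcholine. They were chosen by name from 19973 protein-coding genes, with earlier results of these data known. For each gene, every peak of PQM-1, a zinc finger transcription factor, was taken whose summit fell within the gene, the 5 kb before it or the 2 kb after it on the ce11 (WBcel235) genome. The data are peak lists of chromatin immunoprecipitation and sequencing from 1 group of whole L3 larvae with 2 biological replicates. The worms, of mixed sex, were of strain OP201, which carries the insertion wgIs201 with eGFP-tagged pqm-1 in an unc-119(tm4063) III mutant background, and both replicates share this genotype. The sources used here do not name the promoter that drives the insertion. In whole larvae, binding in a few cells and weaker binding in many cannot be told apart. There was no second condition, so counts are set beside the same counts over all genes or all peaks, and no test between groups could be made.

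In the methionine cycle, SAM synthetases (the sams genes) join methionine and ATP into SAM. Methyltransferases then use SAM and leave S-adenosylhomocysteine, which AHCY-1 splits into homocysteine and adenosine. METR-1, the vitamin B12-dependent methionine synthase, remethylates homocysteine with a methyl group from folate that MTHF-1, methylenetetrahydrofolate reductase, supplies, while CBS-1, cystathionine beta-synthase, draws homocysteine off toward cysteine. PMT-1 and PMT-2 methylate phosphoethanolamine in sequence to phosphocholine. In C. elegans, loss of sams-1 lowers phosphatidylcholine and raises lipid synthesis through SBP-1, the ortholog of mammalian SREBP.

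Several of these peaks carried TGATAAG, a heptamer that is called the DAF-16-associated element (DAE), and others CACGTG, an E-box. The windows below are 101 bases centred on a summit, read 5′ to 3′ on the plus strand of ce11 from the reference genome. Capitals mark TGATAAG on either strand (CTTATCA is its other strand) and CACGTG. Each name gives the gene, the signed distance of the summit from its 5′ end in bp, and the window. They are shown because they hold the strongest summits of their genes or one of these motifs. The CACGTG windows and the metr-1 window at -771 were chosen after their values had been seen.
metr-1 at -1736, chrII:10924775-10924875: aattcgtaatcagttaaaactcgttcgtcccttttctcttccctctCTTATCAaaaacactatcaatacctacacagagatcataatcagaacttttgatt
metr-1 at -771, chrII:10925740-10925840: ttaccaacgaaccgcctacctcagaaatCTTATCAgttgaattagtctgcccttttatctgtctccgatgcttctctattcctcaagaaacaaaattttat
mthf-1 at 899, chrII:7776874-7776974: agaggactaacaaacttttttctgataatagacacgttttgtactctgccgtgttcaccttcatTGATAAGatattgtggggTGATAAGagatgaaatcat
mthf-1 at 345, chrII:7777428-7777528: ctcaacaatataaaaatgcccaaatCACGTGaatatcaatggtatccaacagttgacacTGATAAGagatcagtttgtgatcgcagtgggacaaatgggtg
sams-1 at -3432, chrX:11962480-11962580: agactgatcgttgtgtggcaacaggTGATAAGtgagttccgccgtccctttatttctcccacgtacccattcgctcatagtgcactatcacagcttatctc
sams-1 at -1223, chrX:11964689-11964789: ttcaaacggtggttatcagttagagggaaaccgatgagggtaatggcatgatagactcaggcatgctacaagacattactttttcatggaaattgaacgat
cbs-1 at -2449, chrX:10051776-10051876: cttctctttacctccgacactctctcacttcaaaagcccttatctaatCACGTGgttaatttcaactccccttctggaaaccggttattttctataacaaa
cbs-1 at 333, chrX:10054558-10054658: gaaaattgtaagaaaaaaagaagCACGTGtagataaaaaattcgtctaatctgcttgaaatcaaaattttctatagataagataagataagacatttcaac
pmt-1 at 1233, chrII:5281240-5281340: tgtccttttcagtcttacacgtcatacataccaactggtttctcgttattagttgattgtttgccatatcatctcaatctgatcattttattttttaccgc

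Of the 10 genes, 8 had at least 1 summit of the authors' optimal list in their window, against 40.2% of all protein-coding genes under the same rule. Windows of these 10 genes ran from 8672 to 13684 bp, with a median of 10587 bp against 9027 bp over all genes, and among the 9904 genes with windows of such lengths the share was 43.4%. The 8 genes held 19 optimal peaks in all. Of the 10 genes, 4 held 3 or more optimal summits, against 5.23% of all genes, and sams-1 held 5, a count that 0.701% of all genes reached or passed. With replicate 2 alone at its strongest 5560 peaks (without replicate 1), sams-1 held 3 summits and pmt-1 held the most, 4 in place of 3. There, metr-1 and pmt-2 held 2 each in place of 1, and cbs-1 held 2 in place of 3. With replicate 1 alone, sams-1 held 5. At the other end, sams-3 and sams-4 held none. Merged into 9 stretches, the windows carried 1.95 optimal summits per 10 kb, against 0.554 per 10 kb over the 6 chromosomes. The mean per window was 1.9 for the 10 genes, against 0.634 over all genes.

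**Figure D1:**
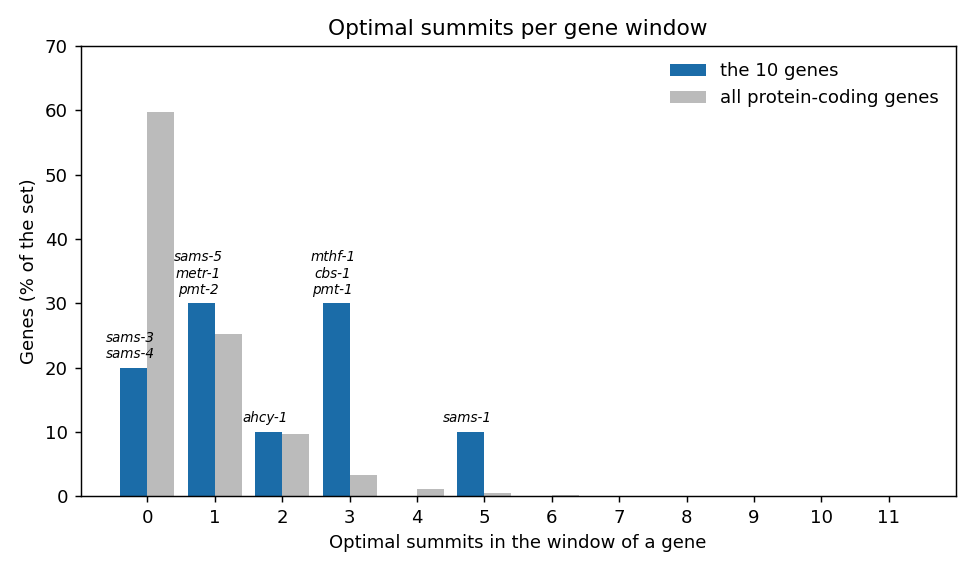
Share of genes (%) by the number of optimal summits in their window, for the 10 genes (blue, named above the bars) and for all 19973 protein-coding genes (grey). The 4 genes with 3 or more summits stand where 5.23% of all genes lie.

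Most of the 19 summits lay outside the promoters of the 10 genes, which cover only a small part of each window. A promoter was counted as the 1000 bp before the gene's 5′ end and the 250 bp after it, and 3 of the 10 genes (sams-1, cbs-1 and pmt-1) had an optimal summit there, against 16.3% of all genes. Those 3 promoter summits were the only ones of the 19 in a promoter of the 10 genes. The share of all optimal peaks that lie in a promoter was not counted. Of the 19 summits, 6 lay more than 1000 bp upstream, 8 lay inside the gene itself and 3 lay past its 3′ end. By the annotation 10 were intergenic to protein-coding genes (52.6%, against 65.4% of all optimal peaks), 8 were intronic (42.1%, against 24.2%) and 1 was in a 3′ UTR (5.26%, against 2.28%). For 14 of the 19 the nearest 5′ end was that of the gene itself, and for the other 5 it was that of C49F5.13, T13A10.1, Y19D2B.2, dpf-3 or gnrr-3.

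**Figure D2:**
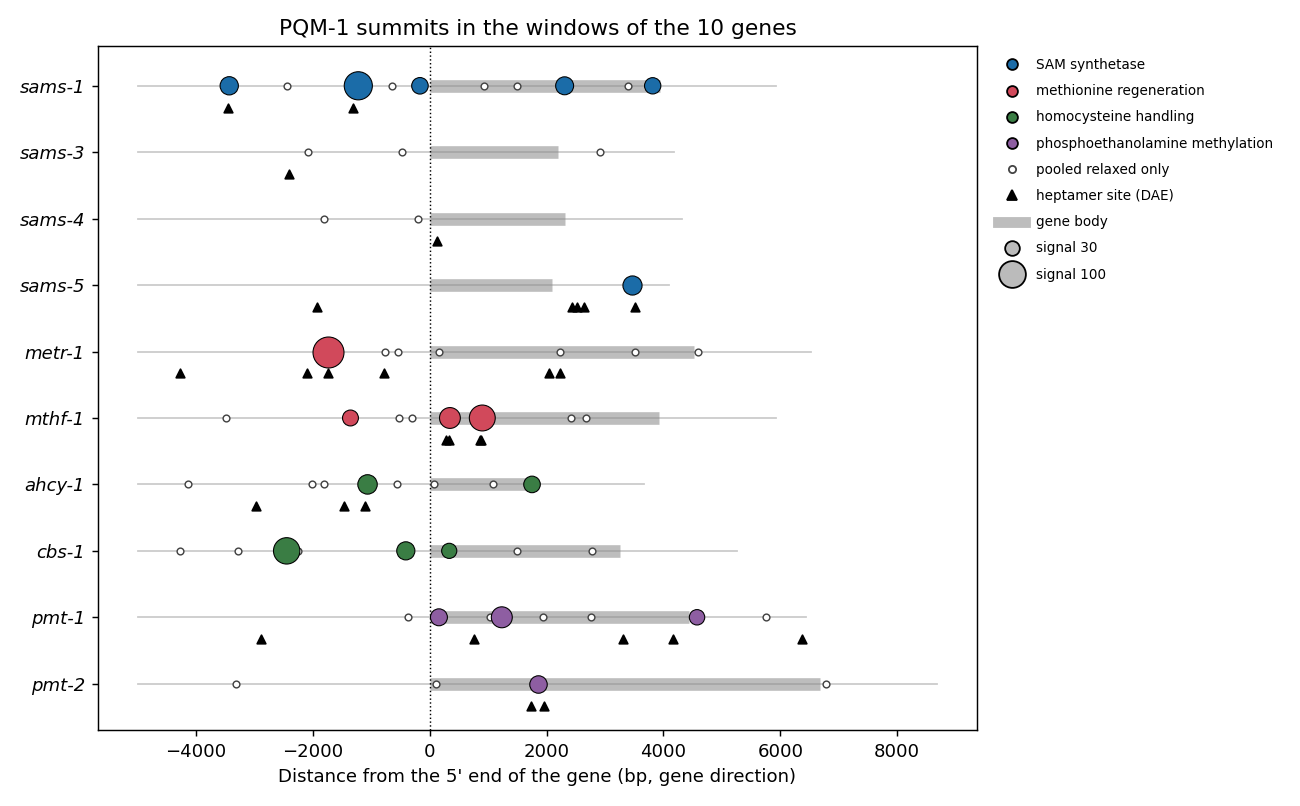
Optimal summits (filled, area by signal, colour by role), weaker summits of the pooled relaxed list (open) and heptamer sites of the DAF-16-associated element (DAE, triangles) by distance from the gene's 5′ end in bp, with gene bodies in grey. The sams-1 row has 5 filled points, while sams-3 and sams-4 have only open ones.

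In the relaxed lists, which keep weak peaks, nearly every gene had a summit. A window summit was present for 10 of the 10 genes in the pooled list (against 88.2% of all genes), for 10 in replicate 1 (against 81.4%) and for 9 in replicate 2 (against 91.5%). A promoter summit was present for 9 in the pooled list (against 45.1%), for 9 in replicate 1 (against 41.3%) and for 7 in replicate 2 (against 41.7%). Replicate 2 lacked one at sams-3, sams-4 and sams-5.

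The SAM synthetase genes ranged from 5 optimal peaks to none. The gene sams-1 (WBGene00008205, chromosome X, 11965962 to 11969893, plus strand), the synthetase tied to phosphatidylcholine supply, held 5 optimal peaks. Its strongest summit lay 1223 bp upstream with a pooled signal of 110.3, rank 364 of the 5560 optimal peaks. That peak had a signal of 74.0 in replicate 1 (rank 527) and 38.4 in replicate 2 (rank 168), so it was among the stronger peaks of each list. The signal is the authors' score with no stated scale, and values of different lists are not on 1 scale.

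The promoter summit of sams-1, 168 bp upstream, had a pooled signal of 38.1 (rank 3371). Its signal was 40.3 in replicate 1 (rank 1991). The overlapping replicate 2 peak, with 4.83 (rank 13290), ranked far lower and had its summit 119 bp away, at -49 bp. A summit 3432 bp upstream (pooled signal 46.6) lay inside the pseudogene WBGene00045316 and nearest to C49F5.13. The summit at 2308 bp (45.0) lay in an intron of the longest sams-1 transcript, beyond the ends of the 2 shorter ones, and the one at 3815 bp (37.2) lay in the 3′ UTR of that longest transcript. The summit at 2308 bp had 30.6 in replicate 1 (rank 3051) and 4.83 in replicate 2 (rank 13301), although a stronger replicate 2 peak, with its summit at 2158 bp (10.9, rank 3405), overlapped it too. The summit at 3815 bp had 32.1 in replicate 1 (rank 2856) and 7.64 in replicate 2 (rank 5975).

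The genes sams-3 and sams-4 lie head to head on chromosome IV and share the stretch between them. Neither had an optimal summit in its window. The pooled relaxed list held a summit 481 bp upstream of sams-3 with a signal of 14.6 and another 200 bp upstream of sams-4 with 13.5, both under the lowest optimal signal of 23.8. Replicate 1 held peaks at both places, with signals of 9.16 and 10.04, whereas replicate 2 held none at either. Replicate 1 also held a weak summit in an intron of sams-4, 323 bp into the gene (3.85, rank 17141). Replicate 2 had no summit at all in the window of sams-4.

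Copies of sequence touch this pair. Of the 36-base words in the gene body of sams-3, 57.9% occurred more than once in the genome, as did 43.4% of those in sams-4, against 3.70% in sams-5 and 0.693% in sams-1. A read of at most 36 bases from such a word cannot be placed uniquely, while a longer read may be. The sources used here do not say how the authors treated reads with several placements. Their part in the peak counts of these gene bodies was not tested. No 36-base word in the 101 bases around any of the 19 optimal summits was repeated.

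The gene sams-5 had 1 optimal peak in its window (pooled signal 51.1, rank 2179), with signals of 34.7 in replicate 1 and 14.1 in replicate 2. It lay past the 3′ end of sams-5, 24 bp upstream of T13A10.1 and at -336 bp from aat-4, an amino acid transporter gene. The promoter of sams-5 held no summit in any of the 4 lists, the only promoter among the 10 without one in the pooled list.

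**Figure D3:**
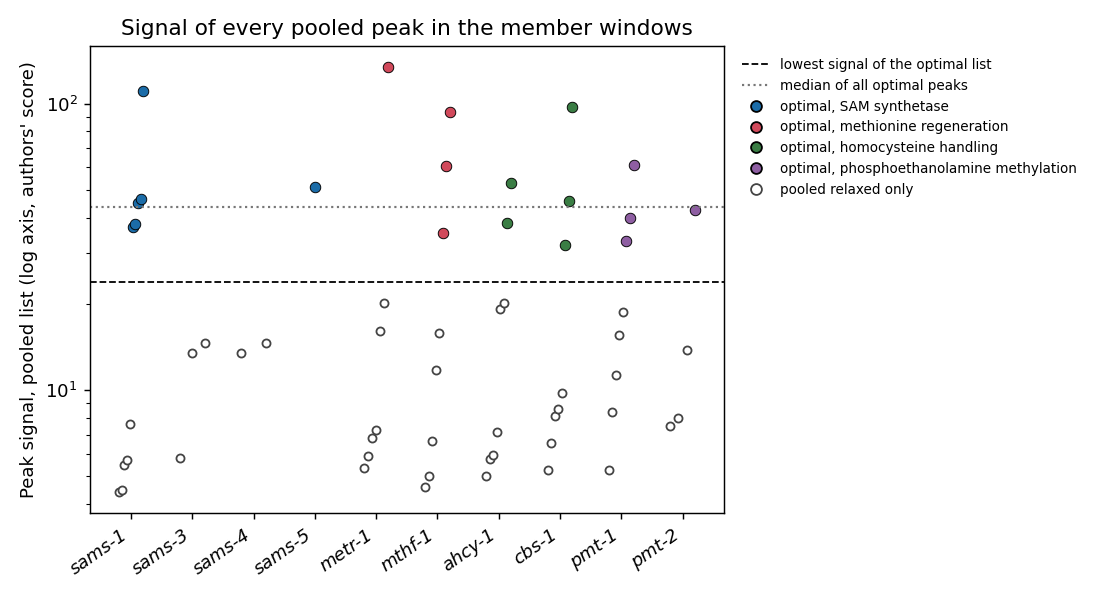
Signal (authors' score, log axis) of every pooled peak in each window, filled where it is in the optimal list, with dashed and dotted lines at the lowest (23.8) and the median (43.6) signal of the optimal list. The peak of metr-1 is the highest at 133.9, and all sams-3 and sams-4 peaks lie under the dashed line.

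Both genes of methionine regeneration had their strongest summits outside the promoter of the gene record. The gene metr-1 (WBGene00010988, chromosome II, 10926561 to 10931078, plus strand) had the strongest peak of all 10 windows, with a pooled signal of 133.9 and rank 181. Its summit lay 1736 bp upstream at the same base in all 4 lists, and the centre of a TGATAAG site was 1 bp from it. The signal was 114.2 in replicate 1 (rank 107) and 20.2 in replicate 2 (rank 1221). Another gene start, that of Y19D2B.2, was nearer, 577 bp away.

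In the metr-1 promoter itself, the pooled list held a summit at -771 bp with a signal of 20.2 (rank 6405), just under the optimal list, with TGATAAG 19 bp from the summit. Replicate 1 had a summit at -810 bp (14.6, rank 6512) and replicate 2 one at -571 bp (9.42, rank 4285), so only replicate 2 placed a metr-1 promoter peak among its strongest 5560. That replicate 2 summit lay nearer to another, weaker pooled summit, at -540 bp (5.34, rank 22628), and had no TGATAAG within 50 bp.

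The gene mthf-1 (WBGene00015512, chromosome II, 7773904 to 7777823, minus strand) had 3 optimal peaks. The strongest, 899 bp into the gene, had a pooled signal of 93.5 (rank 605), with 68.2 in replicate 1 (rank 679) and 25.3 in replicate 2 (rank 694). It was intronic and lay -139 bp from the 5′ end of the shortest annotated mthf-1 transcript, and its window held TGATAAG at 2 places. With the promoters of all transcripts counted, 4 of the 10 genes, mthf-1 included, had a promoter summit. The share of all genes under that rule was not counted. The summit 345 bp into the gene, also intronic, had a pooled signal of 60.5, with 36.2 in replicate 1 and 24.9 in replicate 2, and held TGATAAG once and CACGTG once. The remaining mthf-1 summit, 1357 bp upstream, had 35.3 (24.8 in replicate 1 and 12.0 in replicate 2) and neither motif. All 3 were among the strongest 5560 peaks of each replicate.

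The genes that handle homocysteine both had optimal peaks. At ahcy-1 (WBGene00019322, chromosome I, 6836469 to 6838140, plus strand), the only gene in the list for S-adenosylhomocysteine hydrolase, the stronger peak lay 1065 bp upstream, just outside the promoter limit, with a pooled signal of 52.7 (rank 2070). It had 36.8 in replicate 1 (rank 2299) and 13.9 in replicate 2 (rank 2377), and TGATAAG lay 42 bp from the summit. The other ahcy-1 peak (38.3) lay past the 3′ end and -135 bp from the next gene, dpf-3, a dipeptidyl peptidase family gene, and its replicate 2 partner had its summit 281 bp away.

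At cbs-1 (WBGene00013866, chromosome X, 10054275 to 10057528, plus strand) there were 3 optimal peaks and no TGATAAG anywhere in the window. The strongest, 2449 bp upstream with a pooled signal of 97.0 (rank 536), lay in an intron of gnrr-3, a gene for a receptor of the gonadotropin-releasing hormone receptor family. It had 81.9 in replicate 1 (rank 393) and 17.5 in replicate 2 (rank 1620). The promoter peak of cbs-1, at -410 bp, had 45.9 pooled, 35.4 in replicate 1 (rank 2469) and 11.3 in replicate 2 (rank 3262). It was the only promoter peak of the 10 genes among the strongest 5560 of both replicates. The cbs-1 summit 333 bp into the gene had 32.04 pooled and 28.4 in replicate 1 (rank 3371), but 4.31 in replicate 2 (rank 15874), and its window held AGATAA, a form of the GATA site, at 4 places.

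The phosphoethanolamine methyltransferase genes had their strongest summits in introns. At pmt-1 (WBGene00022781, chromosome II, 5278090 to 5282523, minus strand), whose enzyme starts the methylation, the strongest summit lay 1233 bp into the gene in an intron, with a pooled signal of 61.2 (rank 1610), 41.9 in replicate 1 (rank 1875) and 26.4 in replicate 2 (rank 610). That replicate 1 partner, 118 bp wide, had its summit 101 bp away, at 1132 bp. It covered neither the pooled summit nor any base of the window printed above. The pmt-1 promoter summit, 157 bp past the 5′ end of the gene record and -19 bp from the 5′ end of another pmt-1 transcript, had 40.0 pooled and 37.4 in replicate 1 (rank 2251). Its replicate 2 partner, with 3.87 (rank 18681), had its summit 232 bp away. CACGTG occurred at 2 places around this promoter summit. The last pmt-1 peak (33.1) lay 141 bp past the 3′ end.

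At pmt-2 (WBGene00018811, chromosome V, 4628580 to 4635263, plus strand), which completes the methylation, the 1 optimal summit lay 1853 bp into the gene in an intron, with 42.6 pooled (rank 2886), 26.5 in replicate 1 (rank 3645) and 20.7 in replicate 2 (rank 1157). In replicate 2 the pmt-2 promoter also held a summit at -92 bp, in the 3′ UTR of sumv-2, with a signal of 12.7 (rank 2708). A weaker replicate 2 summit lay at 112 bp (7.76, rank 5823), the same base as a pooled relaxed summit (13.8, rank 8606). The nearest replicate 1 summit lay at 139 bp with a signal of 4.07. Within pmt-2, 20.2% of 36-base words occurred elsewhere in the genome, though none around the optimal summit.

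Over all 19 optimal peaks, both replicates held an overlapping relaxed peak (at least 1 bp), as they did for 93.4% of all optimal peaks. Every one of the 19 was among the strongest 5560 of replicate 1, against 90.8% of all optimal peaks. In replicate 2, 13 of 19 (68.4%) were, against 70.4% of all optimal peaks, with the overlapping peak of nearest summit taken as the partner. With the strongest overlapping peak as the partner, a rule added after the values had been seen, 14 were, sams-1 at 2308 bp being the addition, against 71.7% of all optimal peaks. The summits lay a median of 5 bp from those of replicate 1 and 20 bp from those of replicate 2. The 6 outside that rank in replicate 2 by the nearest summit included the promoter summits of sams-1 and pmt-1. With each replicate taken alone at its strongest 5560 peaks, 3 promoters held a summit in either case: sams-1, cbs-1 and pmt-1 in replicate 1, and metr-1, cbs-1 and pmt-2 in replicate 2. Only cbs-1 was shared.

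**Figure D4:**
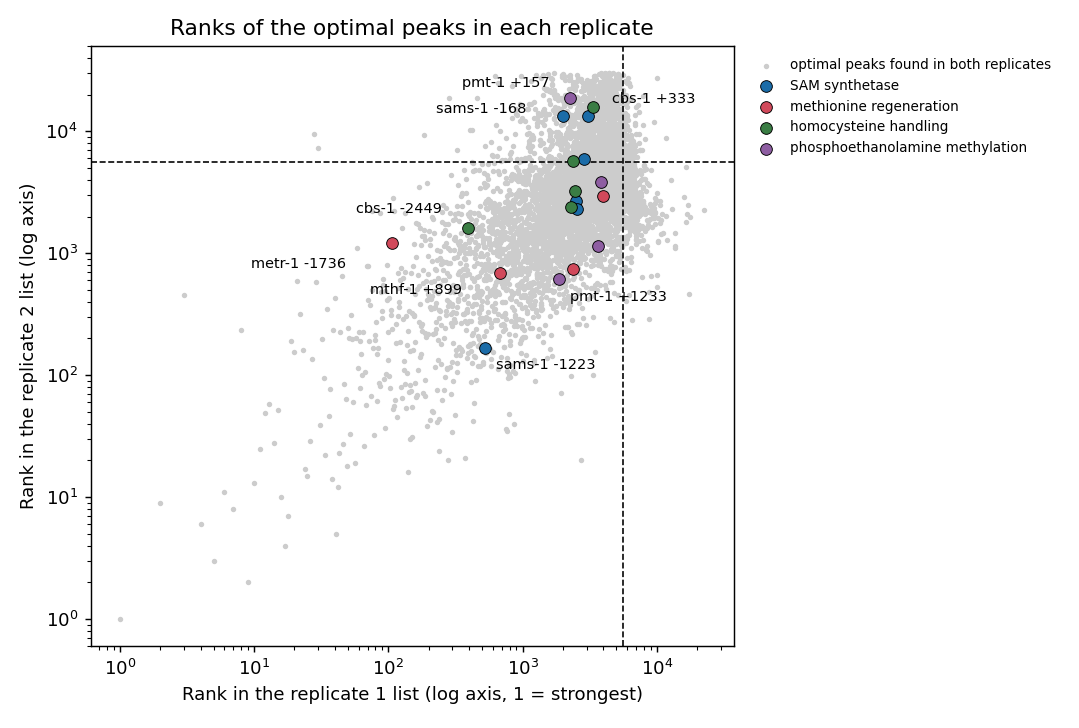
Rank of each optimal peak in the replicate 1 list (x) and in the replicate 2 list (y), both on log axes with 1 as the strongest, for the 19 peaks of the 10 genes (coloured by role) and the optimal peaks found in both replicates (grey). Dashed lines mark rank 5560, and 6 coloured points lie above the horizontal line while none lies right of the vertical one.

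TGATAAG lay within 50 bp of 5 of the 19 summits (26.3%), against 23.9% of all optimal summits, so the share was close to the background. The 5 belonged to 4 genes, namely sams-1, metr-1, mthf-1 and ahcy-1, and no optimal summit of cbs-1, pmt-1 or pmt-2 had it. Counted from the sites, the windows held 28 TGATAAG sites, of which 6 (21.4%) had their centre within 50 bp of an optimal summit, against 8.46% of the 18686 sites of the genome. Any position in these windows was also more often near a summit (1.95 optimal summits per 10 kb, against 0.554 over the chromosomes). Preferred use of the sites there was therefore not shown and was not tested. CACGTG lay at 4 of 19 summits (21.1%), against 4.98% of all, and these belonged to mthf-1, cbs-1 and pmt-1. AGATAA, which shares GATAA with TGATAAG but has another base before it, lay at 5 of 19 (26.3%), against 11.9%. GAGAGAG lay at 1 of 19 (5.26%), against 8.29%, and GTAAACA, the DAF-16 site, at none of the 19, against 3.11%. All motifs were counted on both strands, a match is not by itself a bound site, and with 19 peaks a single peak moves a share by over 5 percentage points.

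Most TGATAAG sites in these windows had no pooled summit within 50 bp. Of the 28 sites, 8 (28.6%) had one, against 14.8% of the sites of the genome. Preferred use was not tested for this share either. The site in sams-4, 121 bp past its 5′ end, was 321 bp from the nearest pooled summit. The 5 sites of the pmt-1 window were each 407 bp or more from an optimal summit, though a replicate 1 peak (8.72, rank 9260) had its summit 3279 bp into pmt-1 with a site at -20 bp. In the pmt-2 intron, 2 sites flanked the optimal summit at 126 and 110 bp. The strongest sams-1 summit had a site at 89 bp, and the peak past sams-5 one at 51 bp, just beyond the distance used. For that sams-5 peak the site lay within the distance in each replicate alone, at -44 bp from the replicate 1 summit and -41 bp from the replicate 2 summit.

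The related genes were taken from a list of 46 genes in the folate cycle, vitamin B12 use, transsulfuration, polyamine synthesis, choline use and their regulation. Of these, 18 (39.1%) had an optimal summit in the promoter, called bound here, against 16.3% of all genes. For 17 of the 18 the gene itself was the nearest, the exception being nhr-68, whose summit was nearer to H12C20.7. Of the 18, 6 had TGATAAG at the strongest promoter summit, against 23.9% of all optimal summits, in promoters or not.

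Of 9 folate cycle genes 3 were bound, with pooled signals of 72.9 at gldc-1 (glycine decarboxylase), 66.5 at gcst-1 (the T protein of the glycine cleavage system) and 57.3 at mel-32 (serine hydroxymethyltransferase). All 3 supply carbon units to folate from glycine or serine. Of 8 genes for vitamin B12 use and propionate 4 were bound, namely mrp-5, a transporter that delivers vitamin B12 to embryos (116.3, rank 301), mce-1, methylmalonyl-CoA epimerase (66.7), pcca-1, a propionyl-CoA carboxylase subunit (36.6), and mtrr-1, methionine synthase reductase (24.98). The mtrr-1 promoter had no peak in replicate 2. The promoter of acdh-1, an acyl-CoA dehydrogenase of the propionate shunt, held no summit in any list.

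Of 9 transsulfuration and cysteine genes 2 were bound, cth-1, a cystathionine gamma-lyase (64.7), and cysl-2, a cysteine synthase-like gene (50.01). The promoter of cbs-2, the paralog of cbs-1, held no summit in any list. All 3 polyamine genes were bound: smd-1, which decarboxylates SAM (135.8, rank 177, with TGATAAG at 2 places), odc-1, ornithine decarboxylase (53.4), and spds-1, spermidine synthase (33.05). The spds-1 promoter had 28.7 in replicate 1 (rank 3323) but only a weak peak in replicate 2 (3.02, rank 25612).

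Of 12 choline genes 3 were bound. The strongest peak of the whole list was at ckc-1, a choline or ethanolamine kinase gene, with a pooled signal of 213.5 (rank 22), 159.5 in replicate 1 (rank 26) and 56.5 in replicate 2 (rank 29). The others were cka-1, a choline kinase gene (48.1), and cept-2, a choline or ethanolamine phosphotransferase gene (30.2), which had no promoter peak in replicate 2. The gene pcyt-1, for the enzyme that makes CDP-choline, had only a relaxed promoter peak (8.06). Of 5 regulators 3 were bound: nhr-68 of the propionate shunt (197.1, rank 36), lpin-1, a lipin gene (72.8), and sbp-1 (40.4). The sbp-1 summit, 144 bp upstream, had TGATAAG at 2 places, and the strongest sbp-1 promoter signal was 21.2 in replicate 1 and 10.2 in replicate 2. The nuclear hormone receptor gene nhr-114, which activates methionine cycle genes when vitamin B12 is low, had a relaxed peak only (17.5).

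**Figure D5:**
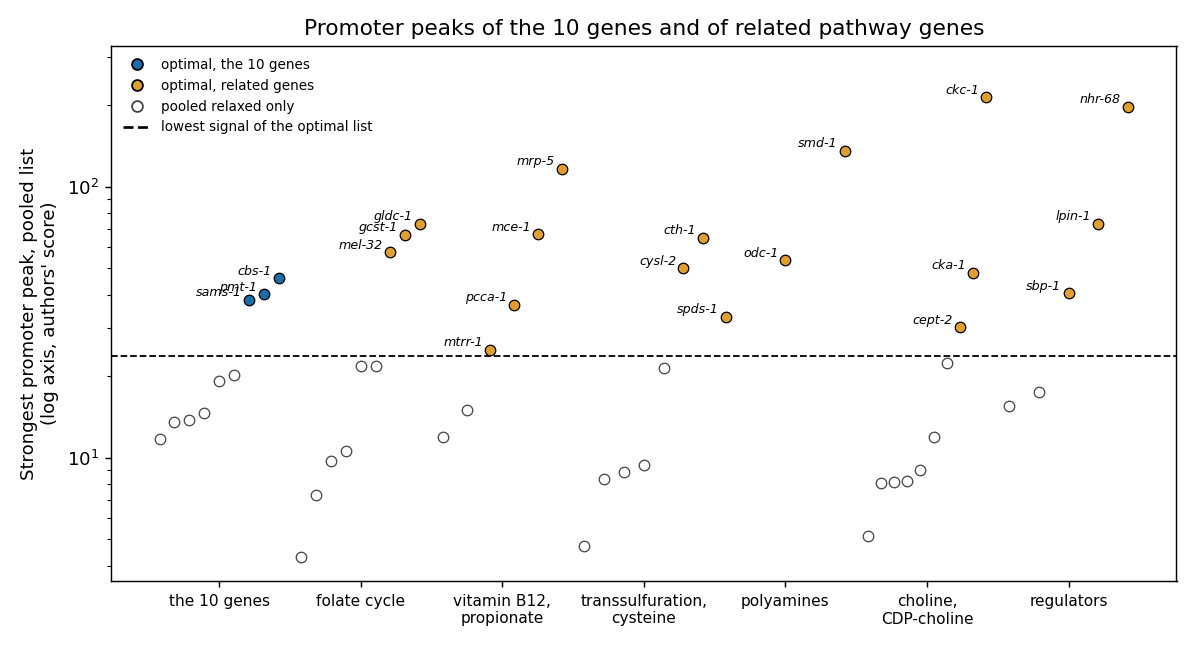
Signal (authors' score, log axis) of the strongest pooled promoter peak of each gene, for the 10 genes (left) and the related genes by role, filled where it reached the optimal list, whose lowest signal (23.8) is the dashed line. Genes with no pooled promoter peak are not drawn. The 3 filled points of the 10 genes lie between 38.1 and 45.9, and the highest related ones are ckc-1 (213.5) and nhr-68 (197.1).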

How the data were processed

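Per the labels, PQM-1 was immunoprecipitated from whole L3 larvae in 2 biological replicates, with a library size range labelled 150 to 350 (no unit stated). The sources used here do not name the aligner, the peak caller or its thresholds. Depth is unknown because peak lists hold no reads. The authors deposited ce11 peak lists of 26022 and 30000 peaks for the replicates, 30000 for both pooled and 5560 optimal peaks; the last were found to be the strongest 5560 of the pooled list. The peak signal is a score set by the authors, the q value is deposited as −log10, and the summit is the deposited offset from the peak start. The ce10 lists, signal tracks and control library were not used here.

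Summits were placed on WBcel235 with Ensembl release 115 genes and the RefSeq genome sequence of the same assembly. Replicate partners overlap by at least 1 bp, taking the nearest summit. The counting code was tested on simulated summits and sequences. Python 3.11.15 with numpy 2.4.6, pandas 2.3.3 and matplotlib 3.10.9 was used.

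The genes, the related list and the alternatives (other windows, list lengths, overlap rules and each replicate alone) were chosen with earlier results of these data known. Genes named are the 10, those nearest to their optimal summits, and up to 3 bound genes with the strongest promoter peak per role in the related list; others were named after their values had been seen.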

Additional observations from a re-analysis of the deposited data

How the results depend on the processing

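No paired analysis was possible because there was 1 group. Of 31 alternatives over 7 counts, 24 stayed within 1.5 times the value given above and 7 did not. With the strongest 1000 optimal peaks, 4 of the 10 genes kept a summit in the window, with 4 summits in all, 0 had one in the promoter, and 4 related genes had one in the promoter. With the stronger 50% of the optimal peaks, the windows held 11 summits and 1 of the 10 promoters (cbs-1) had one. These lists are shorter by construction. The wider promoter, 2000 bp upstream to 500 bp downstream, gave 6 of the 10 genes in place of 3. It covers more sequence by construction. Shares of all genes under these shorter lists and the wider promoter were not counted. Without replicate 1 or replicate 2, 8 genes and 19 summits remained as counts in either case, with 3 promoters and 18 related genes, and 6 and 5 summits with TGATAAG. Without replicate 2 the 3 promoters were those of the same genes, and without replicate 1 only cbs-1 was shared. The set of 18 related genes changed as well, though its count did not. With replicate 2 alone, mtrr-1, spds-1 and cept-2 fell out, while folt-1, cysl-3 and ckb-4 came in. With replicate 1 alone, cka-1 fell out and tyms-1 came in. Summit positions and signals carry no error estimate beyond the 2 replicates, and depth is unknown, so an absent peak is not shown to be an absence of binding.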
